A study of Drosophila melanogaster with 42 samples.

Results

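On sonicated chromatin of Drosophila melanogaster embryos at 3-4 h, 682 autosomal regions were listed with acetylation of histone H4 at lysine 16 (H4K16ac) that were in neither H4K16ac list of embryos at 11-12 h. They were chosen by the deposited lists themselves. A region of the 3-4 h sonicated H4K16ac list was a member if it lay on an arm of chromosome 2 or 3 and overlapped, by 1 bp or more, no region of the 11-12 h sonicated list and no region of the 11-12 h list from chromatin cut with micrococcal nuclease (MNase). The 682 members were 33.4% of the 2043 autosomal regions of the 3-4 h sonicated list, which held 2885 regions on all chromosomes; the 12 lists of the series together held 18571. They are called early-only regions here, and the other 1361 autosomal regions of that list (66.6%) are called persistent regions. Of the persistent regions, 626 overlapped both late lists, 541 the late sonicated list alone and 194 the late MNase list alone.

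The study followed the build-up of dosage compensation in whole embryos at 3-4 h and 11-12 h, with no genotype, strain or sex given in its labels. On chromatin sheared by sonication, H4K16ac, trimethylation of histone H3 at lysine 36 (H3K36me3) and input DNA were sequenced from 2 biological replicates per stage. On chromatin digested with MNase, at 0.9 units per gram of embryo for 3-4 h and 2.9 for 11-12 h, the acetyltransferase MOF, the dosage compensation protein MSL2 and H4K16ac had 3 replicates per stage. Each antibody and stage came as a list of enriched regions over its replicates together, without heights or counts, so that read depth and the spread between replicates are unknown here, and a region that is missing from a list was not measured as free of the mark. Whole embryos mix all cell types of a stage, so a mark in fewer cells and a weaker mark in every cell cannot be told apart. All positions are in the dm6 build.

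H4K16ac is written in Drosophila by MOF, which works in at least a pair of complexes. In the male-specific lethal (MSL) complex MOF acetylates the bodies of X-linked genes in males, and in the non-specific lethal (NSL) complex it acts near the starts of active genes on every chromosome in both sexes. H3K36me3 is laid down by Set2 along transcribed gene bodies, away from the start, and is commonly read as a trace of transcription elongation. Autosomal H4K16ac is best known from the starts of housekeeping genes, and H3K36me3 from the gene bodies downstream.

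The rule that chose the early-only regions fixes their acetylation, and their size, place on the arms and distance to late regions come from the same lists, so these are given as a description. Early-only regions were 119 of 405 autosomal regions on arm 2L (29.4%), 178 of 536 on 2R (33.2%), 170 of 482 on 3L (35.3%) and 215 of 620 on 3R (34.7%). All 4 arms thus had a similar share. By the same rule, 9 of the 803 regions on the X chromosome (1.12%) and 12 of the 38 on chromosome 4 (31.6%) would have been early only. The autosomal part of the sonicated list was itself shorter at 11-12 h, with 1425 regions against 2043, and whether the threshold of the late list took part in the loss was not tested.

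Early-only regions were narrow. Their width ran from 1000 bp, the narrowest width in the list, through a median of 1752 bp to 4462 bp, whereas persistent regions had a median of 2262 bp and reached 8253 bp. Exactly 1000 bp were 178 early-only regions (26.1%) and 71 persistent ones (5.22%). Early-only regions covered 1.15 Mb in all and persistent regions 3.18 Mb.

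**Figure D1:**
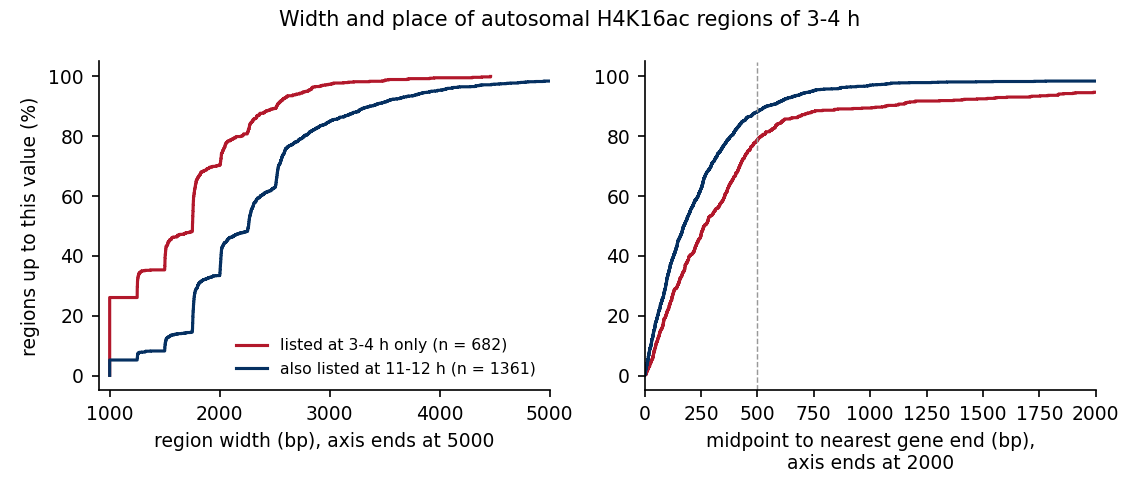
Cumulative share of regions (%) by region width in bp (left) and by distance in bp from the region's midpoint to the nearest end of a protein-coding gene (right), for 682 early-only regions (red) and 1361 persistent regions (blue); the dashed line marks 500 bp. The red curve lies above the blue one for width, with a step at 1000 bp that holds 26.1% of early-only regions, and below it for distance.

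The distance from early-only regions to late acetylation varied widely. The rule leaves out every overlap, and no background distance was computed. The median distance to the nearest late H4K16ac region was 8.15 kb; 67 regions (9.82%) were within 1 kb of one and 299 (43.8%) more than 10 kb away. Just inside the rule stood the region at Gmer (chromosome 2R, 22888367 to 22889366), 26 bp from a late region, followed by those at CG31495 (49 bp) and sima (55 bp), the gene of the hypoxia-inducible factor alpha subunit. Just outside it stood the persistent regions at CG7791, mars and bgcn, which overlapped a late MNase region by 7, 29 and 31 bp.

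Early-only regions, 33.4% of the autosomal list, stood singly or in short runs among persistent ones. The run lengths were not compared with those of a random order. With no persistent region between them, 279 regions stood alone (40.9%) and 403 lay in runs: 118 runs held 2, 39 held 3, 6 held 4, 4 held 5 and 1 held 6. The run of 6 lay on 3R between 9985039 and 10294436, over 309.4 kb, with regions at CG46467, CG3909, CG11722, ohgt, pont (a chromatin-remodelling ATPase) and the kinase gene Nuak. A run of 5 spanned 536.3 kb on 2L from 11277681 to 11814019, at CG33695, Ppt2, Cog8 (a subunit of a Golgi tethering complex), crol (a zinc finger protein) and CycY (cyclin Y). Another run of 5 lay on 2R from 14962665 to 15214151 at ckn, pcs, CG10265, CG8089 and row. In these 3 runs, 5 of 6, 5 of 5 and 4 of 5 regions overlapped H3K36me3, and they did so at both stages. The remaining runs of 5 were shorter, over 96.77 kb on 2R from Sod2 to Psi and 41.6 kb on 3L from JIL-1 to FoxK.

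H3K36me3 remained listed at most places that left the H4K16ac lists. At 3-4 h, 528 of the 682 early-only regions overlapped an H3K36me3 region (77.4%, 95% Wilson interval 74.1 to 80.4), and at 11-12 h 527 did (77.3%). Of the 528, 513 (97.2%) still overlapped H3K36me3 at 11-12 h. Only 15 regions had it at 3-4 h alone, 14 at 11-12 h alone and 140 (20.5%) at neither stage, so the numbers with gain and with loss were balanced (exact binomial sign test, two-sided, p = 1). That test counts any overlap. By the midpoint of the region, H3K36me3 covered 355 early-only regions at 3-4 h (52.1%) and 311 at 11-12 h (45.6%), a fall of 6.45 percentage points (exact binomial sign test, two-sided, p = 3.3e-05). A fall by the midpoint was not particular to early-only regions. The share went from 60.4% to 58.4% of all persistent regions. For persistent regions of the late sonicated list alone it went from 55.5% to 50.1%. The stage change within persistent regions was not tested.

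The mark was nevertheless less frequent at early-only than at persistent regions. At 3-4 h, 91.3% of persistent regions overlapped H3K36me3, so that early-only regions were lower by 13.8 percentage points (95% Newcombe interval of the difference -17.4 to -10.4; Fisher's exact test, two-sided, adjusted p = 1.49e-16; 86.6% of all 2043 regions). At 11-12 h, 92.6% of persistent regions did, and the difference was -15.3 points (-18.8 to -12; Fisher's exact test, adjusted p = 5.07e-21; 87.5% of all 2043). Both differences had the same sign on each of the 4 arms, from -10.9 to -18.1 points at 3-4 h and from -9.74 to -19.5 at 11-12 h. They were smaller among wide regions: at or above the median width of 2010 bp they were -5.34 points at 3-4 h (89.4% and 94.8%; Fisher's exact test, adjusted p = 0.0369) and -6.83 at 11-12 h (88.9% and 95.7%; adjusted p = 0.00317). By the midpoint the difference at 3-4 h was -8.34 points (Fisher's exact test, adjusted p = 0.000613). P-values were adjusted by the Benjamini-Hochberg method over the 10 comparisons made between the region classes. They treat regions as independent, which neighbouring regions are not, and say nothing about variation between embryos or replicates.

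**Figure D2:**
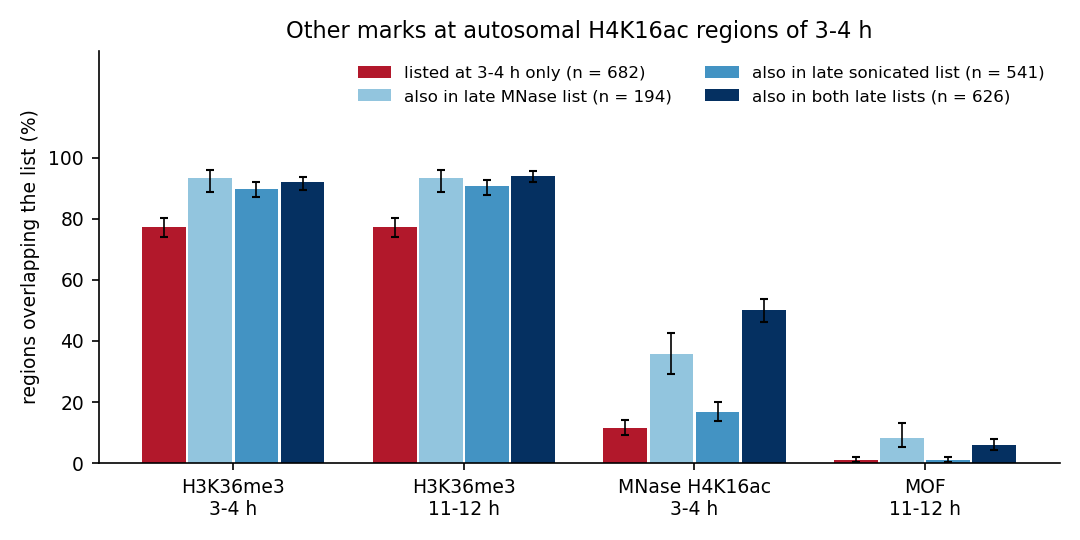
Share of autosomal 3-4 h H4K16ac regions (%) that overlapped H3K36me3 at each stage, MNase H4K16ac at 3-4 h and MOF at 11-12 h, for 682 early-only regions (red) and for persistent regions in 3 shades of blue by the late list they overlapped; bars are shares and whiskers 95% Wilson intervals. Early-only regions are lowest for H3K36me3, at 77.4% and 77.3%, and for MNase H4K16ac, at 11.4%.

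Among regions with H3K36me3 at 3-4 h, 97.2% of early-only and 98.9% of persistent regions retained it, a difference of -1.71 points (-3.56 to -0.369; Fisher's exact test, adjusted p = 0.0148). This small difference did not pass the threshold of 0.05 when persistent regions were limited to those in the late sonicated list alone (-1.4 points, Fisher's exact test, adjusted p = 0.171). It was larger by stricter measures of overlap. With at least 50% of the region under H3K36me3, 84.2% of early-only and 92.8% of persistent regions retained the mark (-8.6 points, Fisher's exact test, adjusted p = 3.79e-06). By the midpoint, 78.3% and 85% did (-6.73 points, Fisher's exact test, adjusted p = 0.00742). Among regions without H3K36me3 at 3-4 h, 14 of 154 early-only regions (9.09%) and 32 of 119 persistent ones (26.9%) had it at 11-12 h, a difference of -17.8 points (-27.1 to -8.72; Fisher's exact test, adjusted p = 0.000199). Against the late sonicated regions alone the difference was -10.9 points (Fisher's exact test, adjusted p = 0.0717). At 50% cover it was -5.73 points (Fisher's exact test, adjusted p = 0.0396).

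The stretch of an early-only region under H3K36me3 was more often smaller than larger at 11-12 h. The median early-only region was 59.7% covered by H3K36me3 at 3-4 h and 53.7% at 11-12 h, whereas the median persistent region was 73.8% and 74.8% covered. Wholly covered were 114 early-only regions at 3-4 h and 86 at 11-12 h. Among the 513 early-only regions with the mark at both stages, cover was smaller at 11-12 h in 287 (55.9%), larger in 159 and equal in 67. The same classes held 527 (42.9%), 505 and 196 of the 1228 persistent regions. These shares of cover were not tested.

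Cover by both marks was read around gene ends. For each region the nearest end of a protein-coding gene was set as the origin, without regard to whether it was a start or a 3′ end, because the annotation used gave no strand. This choice places each 3-4 h H4K16ac region near the origin, so high cover by that list there was fixed in advance. At the gene end, 85.8% of early-only regions were covered by the 3-4 h sonicated H4K16ac list, against 55% at 1 kb into the gene and 29.9% at 1 kb outside it. H3K36me3 was lower at the end than within the gene, with 46.9% of positions covered at the end and 66.7% at 1 kb into the gene at 3-4 h. It was lowest, at 35.2%, not at the end but at -400 bp, outside the gene. At 11-12 h, cover was 39.4% at the end and 66.3% at 1 kb into the gene. Around early-only regions, the stages thus differed by more at the gene end than 1 kb inside. Around persistent regions, H3K36me3 covered 56.8% of gene ends at 3-4 h and 54.9% at 11-12 h. At 1 kb into the gene it covered 76% and later 78.5%, so that pattern did not hold there. These profiles were not tested.

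**Figure D3:**
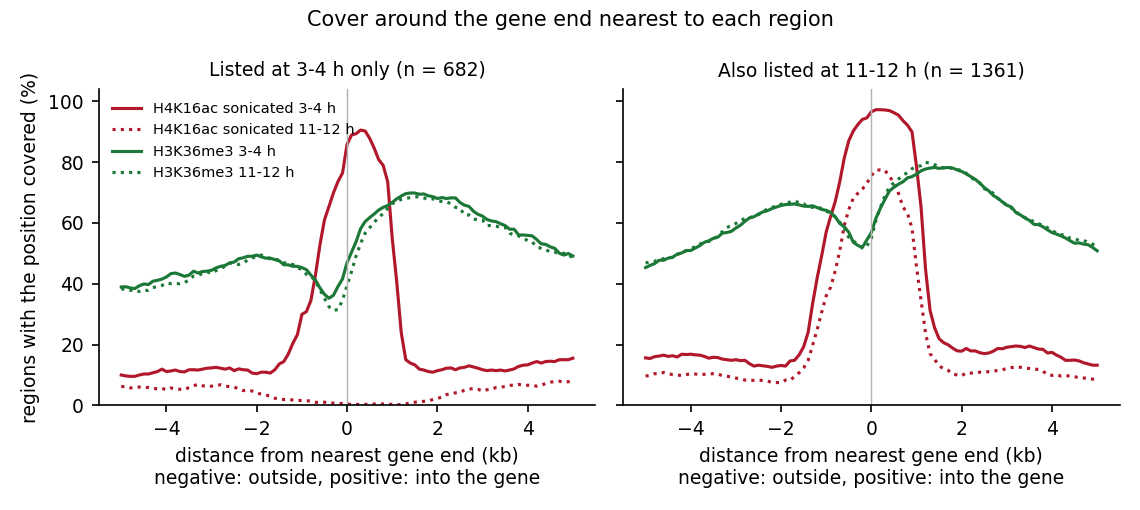
Share of regions (%) whose position at a given distance (kb, negative outside and positive into the gene) from the nearest gene end was covered by sonicated H4K16ac (red) or H3K36me3 (green) at 3-4 h (solid) and 11-12 h (dotted), for 682 early-only (left) and 1361 persistent regions (right). On the left, H4K16ac of 3-4 h covers 85.8% at the gene end and at most 90.5%, at 300 bp into the gene. Its rise near the gene end follows from centring on the end nearest to each region, and its absence at 11-12 h is by construction. The H3K36me3 curves of the stages meet at 1 kb into the gene, at 66.7% and 66.3%.

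Early-only regions stood at gene ends, though less tightly than persistent ones. The midpoint lay within 500 bp of a gene end in 537 early-only regions (78.7%) and in 1201 persistent ones (88.2%), a difference of -9.5 points (-13.1 to -6.08; Fisher's exact test, adjusted p = 5.39e-08; 85.1% of all 2043). The median distance to the end was 265 bp for early-only and 174 bp for persistent regions. Among regions at or above the median width of 2010 bp the difference was -3.69 points and did not pass the threshold (Fisher's exact test, adjusted p = 0.201).

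Fewer early-only regions bridged neighbouring genes. At least 2 protein-coding genes were touched by 394 early-only regions (57.8%) and by 1116 persistent ones (82%), a difference of -24.2 points (-28.4 to -20; Fisher's exact test, adjusted p = 6.29e-30; 73.9% of all 2043). The difference held its sign on every arm, from -19.8 to -27 points. Width moved its size. Among regions at or above the median width it was -6.06 points (84.7% and 90.7%; Fisher's exact test, adjusted p = 0.0369). Among regions of exactly 1000 bp it was -12.7 points with an adjusted p of 0.119 by Fisher's exact test, on 178 and 71 regions. Within early-only regions, 108 held no gene end (15.8%), 213 held 1, 295 held 2 and 66 held 3 or more.

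The midpoint lay inside a gene body in 543 early-only (79.6%) and 983 persistent regions (72.2%), a difference of 7.39 points (3.46 to 11.1; Fisher's exact test, adjusted p = 0.000368; 74.7% of all 2043). This depended on width. Among regions at or above the median width the difference was -8.23 points (Fisher's exact test, adjusted p = 0.0665), and among narrower ones 0.404 points (adjusted p = 0.839).

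The 140 early-only regions without H3K36me3 at either stage differed in place from the 513 that had it at both. Within 500 bp of a gene end lay 49.3% of the former and 87.5% of the latter, and at least 2 genes were touched by 27.1% and 67.3%. The gene that overlapped the region most is called its host gene below. For the 10 early-only regions that touched no protein-coding gene, the nearest gene was taken. The host gene had a median length of 7.47 kb where H3K36me3 was absent and 2.78 kb where it was present at both stages. Regions without the mark were also narrower, with a median of 1252 bp against 1758 bp. These values were not tested.

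The widest early-only regions spanned both kinds. The widest, 4.46 kb at 3R 9257272 to 9261733, covered Ibf1 and Ibf2, which encode partners of the insulator protein CP190, and lay 100% under H3K36me3 at 3-4 h and 89% at 11-12 h. The next, 4.38 kb at 3R 22370778 to 22375158, lay over CG7069 and PyK, the gene of the glycolytic enzyme pyruvate kinase, and had no H3K36me3 at either stage. It was among the few that were also in the MNase H4K16ac list of 3-4 h. At Mapmodulin (2R 17868462 to 17872757, 4.30 kb) H3K36me3 covered 21.9% of the region and later 9.99%.

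The region at chif, which encodes the fly counterpart of the Dbf4 activator of DNA replication, had no H3K36me3 at either stage (2L 16349813 to 16353761, 3.95 kb). The 3.91 kb region at stac, a gene of tracheal tube fusion, went from 75.9% to 68.5% under H3K36me3. At Nup107, a nuclear pore protein gene, cover went from 70.4% to 58.9%. By contrast, the region at Rca1, an inhibitor of the anaphase-promoting complex, was 92% and 93% covered. The 3.50 kb region with CG34277 as its host gene, which also touched the RNA polymerase II subunit gene Polr2F and the replication gene hd, went from 48.4% to 44%.

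JIL-1, the kinase that phosphorylates histone H3 on serine 10 in interphase, and Cep290, a gene of the ciliary base, were the only genes touched by 3 early-only regions, and 37 genes were touched by 2. JIL-1 spans 3L 11078752 to 11093193. Its widest region (11080211 to 11083914) was 97.9% under H3K36me3 at 3-4 h and 96.1% at 11-12 h, whereas the other two, nearer the opposite end of the gene, had none. Over the whole gene, H3K36me3 covered 35.2% and later 34.8%. The Cep290 gene (3L 843926 to 851080) carried no listed H3K36me3 at either stage. Rim2, a mitochondrial nucleotide carrier gene, had 2 early-only regions, and H3K36me3 covered 27% of the gene at 3-4 h and 27.1% at 11-12 h.

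Few early-only regions changed their H3K36me3 class, and several did so by a short overlap. Of those with the mark at 3-4 h only, the widest lay at the rhodopsin gene Rh4 (4.5% covered), at the forkhead gene jumu (11.2%), at pygo, a nuclear effector of Wingless signalling (35.7%), and at the scavenger receptor gene Sr-CII (55.5%). Of those with it at 11-12 h only, the widest lay at CG17734 (5.6% covered), at the lipid-synthesis regulator gene SREBP (79.8%), at Sap130 (0.526%) and at the ubiquitin ligase gene Kcmf1 (100%). Of these 4, SREBP and Kcmf1 had more than a short overlap. With neither, the widest after CG7069 and chif lay at the aminopeptidase gene Psa (3L 1516048 to 1518800) and at Nipped-A (2R 5249786 to 5252382), which encodes a scaffold of histone acetyltransferase complexes.

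At the level of genes, the 682 regions touched 1093 autosomal protein-coding genes, which is 9.39% of the 11645 such genes; any 3-4 h sonicated region touched 3832 of them (32.9%). Of the 3832, the 1093 were 28.5%. No late H4K16ac region touched 996 of the 1093 genes, while the other 97 had late acetylation elsewhere. Among the 996, H3K36me3 overlapped 875 (87.9%) at 3-4 h and 873 (87.7%) at 11-12 h; 854 had it at both stages, 21 at 3-4 h only, 19 at 11-12 h only and 102 at neither. For genes touched by persistent regions only, the shares were 92.6% and 94.2% of 2739, and for all autosomal genes 50.8% and 51.5%. The 996 genes had a median length of 2.95 kb, against 2.36 kb for all genes touched at 3-4 h.

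Gene lists were read against the 28.5% of acetylated autosomal genes that lay under an early-only region. Genes of DNA replication stood highest among the lists with at least 10 acetylated genes. Under early-only regions lay 14 of the 24 replication genes acetylated at 3-4 h (58.3%), at 13 regions. None of the 14 was touched by late H4K16ac, but nor were 91.1% of all 1093 genes under early-only regions, which the rule favours. The lists describe these genes and were not tested.

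The widest replication region, 2.81 kb at 3R 8263309 to 8266118, was shared by Mcm2, a subunit of the replicative helicase, and RPA1, the large subunit of the single-strand binding protein. H3K36me3 covered 90.2% of it at 3-4 h and 48.1% at 11-12 h. At Psf2, a subunit of the GINS complex (2L 4384982 to 4387587), cover went from 98.2% to 47.5%, and at the helicase gene Mcm5 (3R 10787175 to 10789700) from 100% to 82.5%. Over all 13 replication regions, H3K36me3 cover was smaller at 11-12 h in 11, larger in 1 and equal in 1. The median cover was 90.2% at 3-4 h and 52.2% at 11-12 h, and the median change per region was -29.3 percentage points.

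The remaining replication regions were chosen for naming after their values were seen. At RfC4, a subunit of the clamp loader, the region went from 100% to 0% (3L 4134821 to 4136092), at the origin recognition gene Orc1 from 80.5% to 26.4%, at Rif1 from 100% to 52.2% and at Orc2 from 77% to 47.8%. At RfC38 and RnrS, cover went from 100% to 78.1% and from 85.2% to 54.9%. At dpa and Orc4 it went from 57% to 45.8% and from 74% to 67%. Mcm7 was the one with more cover, 88% and later 95.2%, and Orc5 had 100% at both stages. The background for these values is the 542 early-only regions with H3K36me3 at either stage, of which 302 (55.7%) had less cover at 11-12 h, with a median change of -2.2 percentage points. The 10 persistent regions at replication genes had a median change of -11.6 points, with less cover in 6 of them.

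Cell cycle genes lay under early-only regions in 8 of 18 cases (44.4%). The widest were those at Bub3 of the spindle checkpoint (3R 29674265 to 29676794, H3K36me3 cover 100% and later 88.6%), at fzy, the Cdc20 activator of the anaphase-promoting complex (91.9% and later 73.9%), at the mitotic cyclin gene CycB (46.2% and later 37%) and at the mitotic kinase gene aurA (83.3% and later 72.3%). Cover was smaller at 11-12 h in 6 of the 7 regions of this list with the mark and equal in 1. It was also smaller in 9 of the 11 persistent regions of the list.

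Genes of the maternal germ plasm and the piRNA pathway followed with 7 of 16 (43.8%), at 8 regions. Those at tral and me31B, which encode partners in maternal messenger storage, lay at 3L 12513649 to 12516163 and 2L 10238745 to 10240758. The me31B region stood only 0.134 kb from a late H4K16ac region, and that at spn-E, of the same list, 0.461 kb. The tral region was 5.61 kb from one. H3K36me3 covered 40.7% and later 18.3% of the tral region, and 37.6% and later 37% of the me31B region. The region at the germline helicase gene vas (2L 15059731 to 15061830), which had TfIIS as its host gene, was 60.4% and 60.1% covered. Late H4K16ac regions touched vas and AGO3 elsewhere, and touched none of the other 5 of these 7 genes. The region at exu, a gene of bicoid messenger localisation, carried none. In all, 4 of the 8 regions had H3K36me3, each with less cover at 11-12 h. Cover was also smaller in 3 of the 8 persistent regions of this list with the mark, and in 55.7% of all early-only regions with it.

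**Figure D4:**
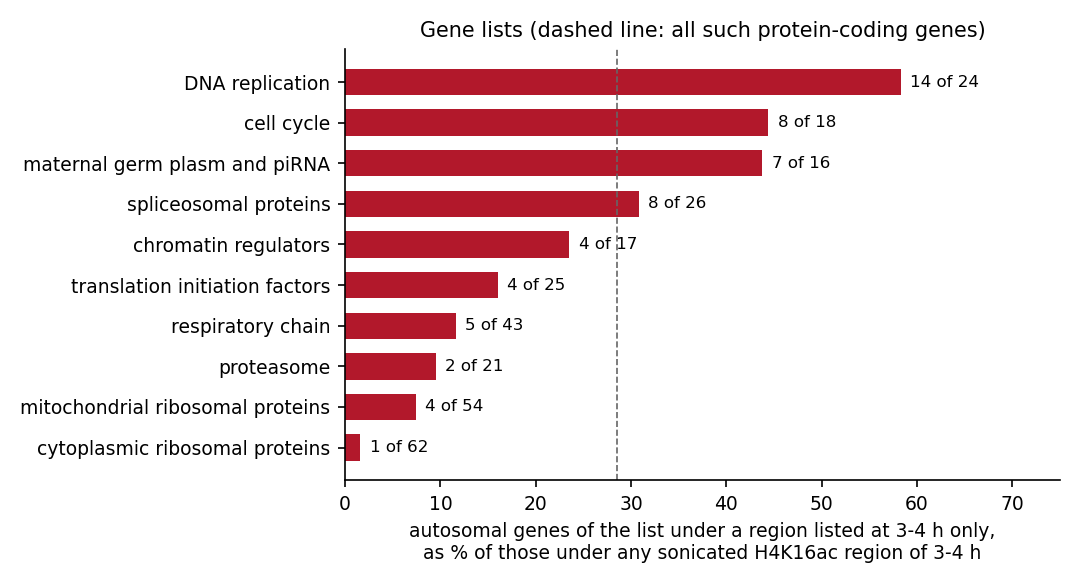
Genes of each list under an early-only region as a percentage of the autosomal genes of the list under any 3-4 h sonicated H4K16ac region, for the 10 lists with at least 10 such genes; labels give the counts and the dashed line marks 28.5% of all such protein-coding genes. DNA replication stands at 58.3% and cytoplasmic ribosomal proteins at 1.61%.

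Housekeeping lists lay on the other side of the background. Of 62 acetylated genes of cytoplasmic ribosomal proteins, 1 lay under an early-only region (1.61%), RpL27 (3R 25684061 to 25685812), whose region was 100% under H3K36me3 at both stages and stood 0.446 kb from a late H4K16ac region. Mitochondrial ribosomal proteins had 4 of 54 (7.41%), at mRpL21, mRpL2, mRpL47 and mRpL12. The proteasome had 2 of 21 (9.52%), at Rpn5 and at the gene Prosbeta2R2. The respiratory chain had 5 of 43 (11.6%), the widest at ND-B14, ATPsynE, ND-23, which shared its region with the piRNA gene spn-E, and ATPsynC. Translation initiation factors had 4 of 25 (16%), at eIF3b, eIF5B, eIF4EHP and eIF4G2.

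Lists near the background included spliceosomal proteins with 8 of 26 (30.8%) and chromatin regulators with 4 of 17 (23.5%). The widest spliceosomal regions were at Prp3, Prp31, U2af38 and Prp6. The chromatin regulators were Mi-2, the ATPase of the NuRD complex, which shared its region with Prp3, the deacetylase gene HDAC1, the histone chaperone gene Caf1-55 and the Polycomb gene Pc. H3K36me3 covered less of 3 of these 4 regions at 11-12 h, as at Pc with 69.9% and later 54.2%. It also covered less of 6 of the 12 persistent regions of this list with the mark.

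Smaller lists gave few acetylated genes. Of the 3 acetylated genes for H3K36 methylation and JIL-1, 2 were under early-only regions, JIL-1 and the H3K36 methyltransferase gene NSD, whose region (3R 27936739 to 27939358) was 82.6% and later 66.6% under H3K36me3. None of the 5 acetylated genes of the NSL complex and partners was, nor any of the 4 of the EGFR and Ras pathway. The Notch pathway had 4 of 8, at Su(H), Nct, mam and H. Early-only regions also held tld of the dorsoventral list, Clamp of the zygotic activation list, brat of the neural list, Tm1 of the muscle list, the receptor genes Gr59f and Ir68b, and a single region with 2 of 4 tRNA genes. The 18 autosomal gap and pair-rule genes and the 8 autosomal Hox genes had no 3-4 h sonicated H4K16ac region.

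Early-only regions were seldom seen on MNase chromatin even at 3-4 h. The MNase H4K16ac list of 3-4 h overlapped 78 of them (11.4%) and 472 persistent regions (34.7%), a difference of -23.2 points (-26.6 to -19.6; Fisher's exact test, adjusted p = 1.18e-30; 26.9% of all 2043). Among regions of exactly 1000 bp the difference was -8.74 points (Fisher's exact test, adjusted p = 0.0131). Persistent regions were partly chosen by the late MNase list. Against the 541 persistent regions that only the late sonicated list held, of which 16.6% overlapped the early MNase list, the difference was -5.2 points (Fisher's exact test, adjusted p = 0.0159).

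MOF was listed at almost none of the early-only regions. At 3-4 h, 2 overlapped a MOF region (0.293%), against 13 persistent regions (0.955%), a difference of -0.662 points that did not pass the threshold (Fisher's exact test, adjusted p = 0.166; 0.734% of all 2043). At 11-12 h, 6 did (0.88%), against 58 persistent ones (4.26%), a difference of -3.38 points (-4.68 to -1.98; Fisher's exact test, adjusted p = 1.65e-05; 3.13% of all 2043). Against persistent regions of the late sonicated list alone it was -0.0444 points (Fisher's exact test, adjusted p = 1). The MOF lists held few autosomal regions in all, 40 at 3-4 h and 82 at 11-12 h.

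The widest early-only regions with MOF at either stage lay at CG17187 (3-4 h), CG34149 (both stages), the mitochondrial superoxide dismutase gene Sod2, the RNA polymerase II phosphatase gene Fcp1 and CG6813 (11-12 h each). None of these places had late H4K16ac, as the rule requires. The region at Sod2 (2.36 kb) was 176443 bp from the nearest late H4K16ac region and lay 81.2% and later 81.9% under H3K36me3. MSL2 overlapped no early-only region at 3-4 h. At 11-12 h it overlapped 1 on mononucleosomal fragments (0.147%) and 2 on subnucleosomal fragments (0.293%). Persistent regions were about as rare, with 1 (0.0735%) and 3 (0.22%) at 11-12 h, and 1 on mononucleosomal fragments at 3-4 h.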

How the data were processed

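The authors deposited 12 lists of enriched regions with start and end positions as their only values and 1 list per antibody, stage and MNase fragment class; MSL2 has mononucleosomal and subnucleosomal lists. They contain no score, count or read depth, and the replicates of a group share a list. Build dm6 and the tools Bowtie2 2.2.9, SAMtools and HOMER are named per the submitters' processing notes, without settings; how peaks were called is not given in the sources used here. Overlaps of at least 1 bp, distances and covered shares were computed with Python 3.11.15, numpy 2.4.6 and scipy 1.17.1, and plots with matplotlib 3.10.9; the overlap and test code was tested on simulated data. Protein-coding genes came from a RefSeq table of the same assembly, which holds no strand, exons or sequence, so 2 planned results on gene starts and 3′ ends were not run.

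Region classes were compared with two-sided Fisher's exact tests, adjusted by Benjamini-Hochberg over 10 tests at 0.05, with 95% Wilson and Newcombe intervals; these cover counting error only. Named genes are the hosts of the 10 widest early-only regions, of the 4 widest in each H3K36me3 class, of the 3 genes with most regions, of the 3 longest runs, of the 3 regions on each side of the rule, and of up to 5 regions with MOF. Each gene list adds up to 4 member genes by region width, which need not be the host. Further replication genes were named after their values were seen. Members and the 23 gene lists were chosen with earlier results of these data known; 3 list names were unmatched. Alternatives changed the overlap, width, spacing and persistent group.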

Additional observations from a re-analysis of the deposited data

How the results depend on the processing

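Of 127 recomputed values, 105 stayed on their side of the threshold without a change of sign over 15 settings, 3 of them at exactly 0. The lower shares of H3K36me3 in early-only regions did so in every setting run (-17.4 to -5.34 points at 3-4 h, -21 to -6.83 at 11-12 h), as did MNase H4K16ac at 3-4 h (-38.6 to -5.2). MOF at 3-4 h stayed short of the threshold (-0.985 to 0). The other 22 values follow, as differences in percentage points with adjusted Fisher's exact or exact sign test p in brackets; the cause was not tested.

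With persistent regions of the late sonicated list only, H3K36me3 retained was -1.4 (0.171), H3K36me3 gained -10.9 (0.0717) and late MOF -0.0444 (1). Among regions narrower than the median, retained was -0.768 (0.548) and midpoint inside a gene 0.404 (0.839). At or above the median width, gained was -9.55 (0.608), late MOF -2.76 (0.163), midpoint near a gene end -3.69 (0.201) and midpoint inside a gene -8.23, a reversal (0.0665). With 1 region per 50 kb, retained was -1.32 (0.154). The change of H3K36me3 between stages within early-only regions was 0.165 with regions within 1 kb joined (1) and 0.198 with 1 region per 50 kb (1), both reversed. It was -5.28 at 50% cover (0.000223) and -6.45 at the midpoint (3.3e-05).

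Both of the following settings were chosen after seeing the data. In a 1 kb window at the midpoint the stage change was -2.49 (0.0241). Among regions of 1000 bp only, retained was -2.71 (0.739), gained -19.5 (0.119), late MOF -3.66 (0.119), near a gene end -8.64 (0.316), inside a gene 2 (0.739), several genes touched -12.7 (0.119) and the stage change 0.562 (1), reversed.

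No paired analysis was possible because each list pools its replicates, and no setting left out a replicate for the same reason. The 2 planned results on gene starts and 3′ ends were not run, for want of strand. Read depth is unknown.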
